A study of Sus scrofa with 3 samples.

Results

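This account covers 38 genes that handle zinc, copper and iron in pig kidney. They comprise every gene listed under an SLC30A or SLC39A symbol, together with 15 named genes of copper and iron transport, storage and sensing. The whole table lists 34570 genes. SLC11A2 and SLC39A10 were not analysed here, and the metallothioneins were left out of the set. The genes were listed by name, with earlier results of these data known.

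The kidneys came from Chinese Wuzhishan pigs, all males aged 6 to 7 months and all given a high-fat, high-cholesterol feed. IM pigs were intact, CM pigs were castrated, and CMT pigs were castrated and given testosterone replacement. Every group shared that feed, so no pig on an ordinary one enters any comparison. RNA of 3 pigs per group was mixed in equal amounts, which leaves 1 library per group and no spread between pigs. The design text speaks of triplicates, but the table holds 1 column of counts per group. No p-value is therefore given, and every difference below is one between pooled libraries.

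Cells move these metals with dedicated carriers. SLC30A proteins export zinc from the cytosol, across the plasma membrane or into vesicles and the Golgi, and SLC39A proteins bring zinc, and in some cases iron and manganese, into it. Copper enters through SLC31A1, is carried by small chaperones and is pumped out by the ATPases ATP7A and ATP7B. Iron enters bound to transferrin through its receptor TFRC, is stored in ferritin and leaves through ferroportin, the product of SLC40A1. The kidney filters and reabsorbs metals bound to plasma proteins, and its proximal tubule takes such proteins up by endocytosis.

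Values for the libraries follow in the order IM, CM, CMT throughout. Total counts were 16459771, 18503537 and 13601475, and the 38 genes took 2.91%, 2.86% and 2.85% of them. Ferritin made up nearly all of that share. The remaining 36 genes held 16586, 18323 and 12624 counts. Levels are given as CPM, counts scaled to a common library size by TMM, a method that sets library sizes so that most genes agree. In all, 32 genes had a mean of at least 1 CPM and were compared. A fold is followed by its exact 95% interval (Clopper-Pearson, from the share of counts in each library), which covers counting error only. A gene was called when the interval lay wholly beyond 2-fold.

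None of the 32 compared genes was called in any comparison. Over all 15472 genes compared, the 2-fold rule called 2.71% when CM was set against IM, 2.95% with CMT against CM, and 1.5% with CMT against IM. A looser rule, with the interval wholly beyond 1.5-fold, also called 0 of the 32, against a background of 6.22%, 6.3% and 3.74% in that order. With shares this small, 0 of 32 is near the background and does not set these genes apart. What the counts do give is a bound. For CM against IM the interval of 27 of the 32 genes lay wholly within 2-fold, and that of 20 lay within 1.5-fold. The corresponding numbers were 26 and 21 with CMT against CM, and 26 and 19 with CMT against IM. Of all genes compared, 78.3%, 76.4% and 77.8% lay within 2-fold, and 53.9%, 52.4% and 55% within 1.5-fold. The genes that were not bounded within 2-fold for CM against IM were ATP7A, ATP7B, HEPH, MTF1 and SLC30A4. With CMT against CM they were ATP7A, ATP7B, HEPH, IREB2, SLC30A4 and SLC30A6, and with CMT against IM they were ATP7B, IREB2, MTF1, SLC30A4, SLC30A6 and SLC40A1. Apart from SLC40A1, with 222, 195 and 104 counts, each of these genes had fewer than 100 counts in at least 1 library.

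**Figure D1:**
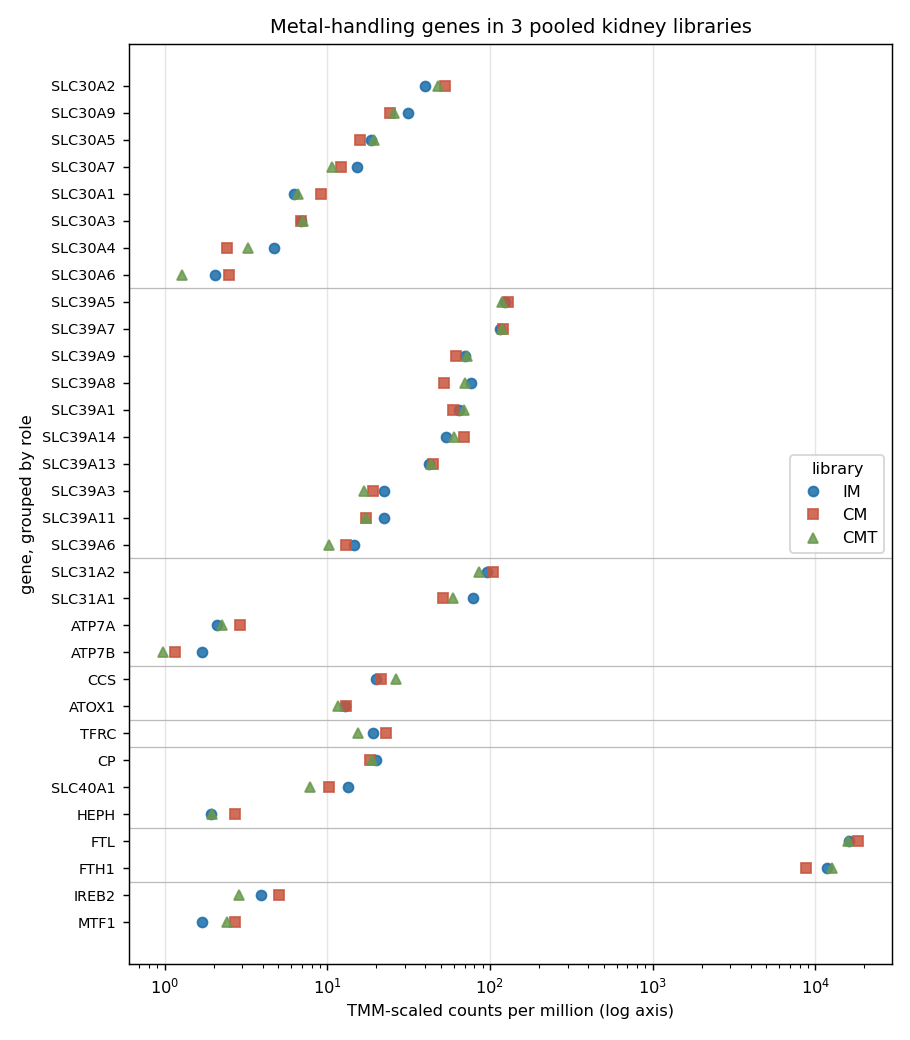
TMM-scaled CPM (log axis) of the 32 compared genes in the IM, CM and CMT libraries, 1 point per library, with genes grouped by role. The 3 points of most genes lie close together, with wider gaps for some, among them SLC30A4, SLC30A6, SLC40A1, IREB2, ATP7B, MTF1, SLC31A1 and FTH1. Counts are not divided by gene length, so points are to be compared within a gene.

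Smaller differences were sorted by whether the interval held 1, that is, whether the libraries differed beyond counting error. This rule was added after the data were seen. More counts give a narrower interval, and the background genes were not matched to the 32 for counts. For CM against IM, 6 of the 32 genes were higher in CM (18.8%, background 21.2%) and 11 were lower (34.4%, background 23.2%). For CMT against CM, 7 were higher in CMT (21.9%, background 21.3%) and 10 lower (31.2%, background 20.4%). For CMT against IM, 4 were higher (12.5%, background 17.8%) and 10 lower (31.2%, background 17.5%). Scaling by plain library totals changed these splits to 8 higher and 9 lower, to 5 and 13, and to 3 and 13, in the same order of comparisons. The median log2 fold of the 32 genes was 0.0045 for CM against IM, beside -0.0063 for all genes. It was -0.14 for CMT against CM, beside -0.0043, and -0.079 for CMT against IM, beside -0.013. The comparisons share libraries, so they are not independent of each other. A difference beyond counting error between 2 pools can still be smaller than the spread between pigs, which is unknown here.

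**Figure D2:**
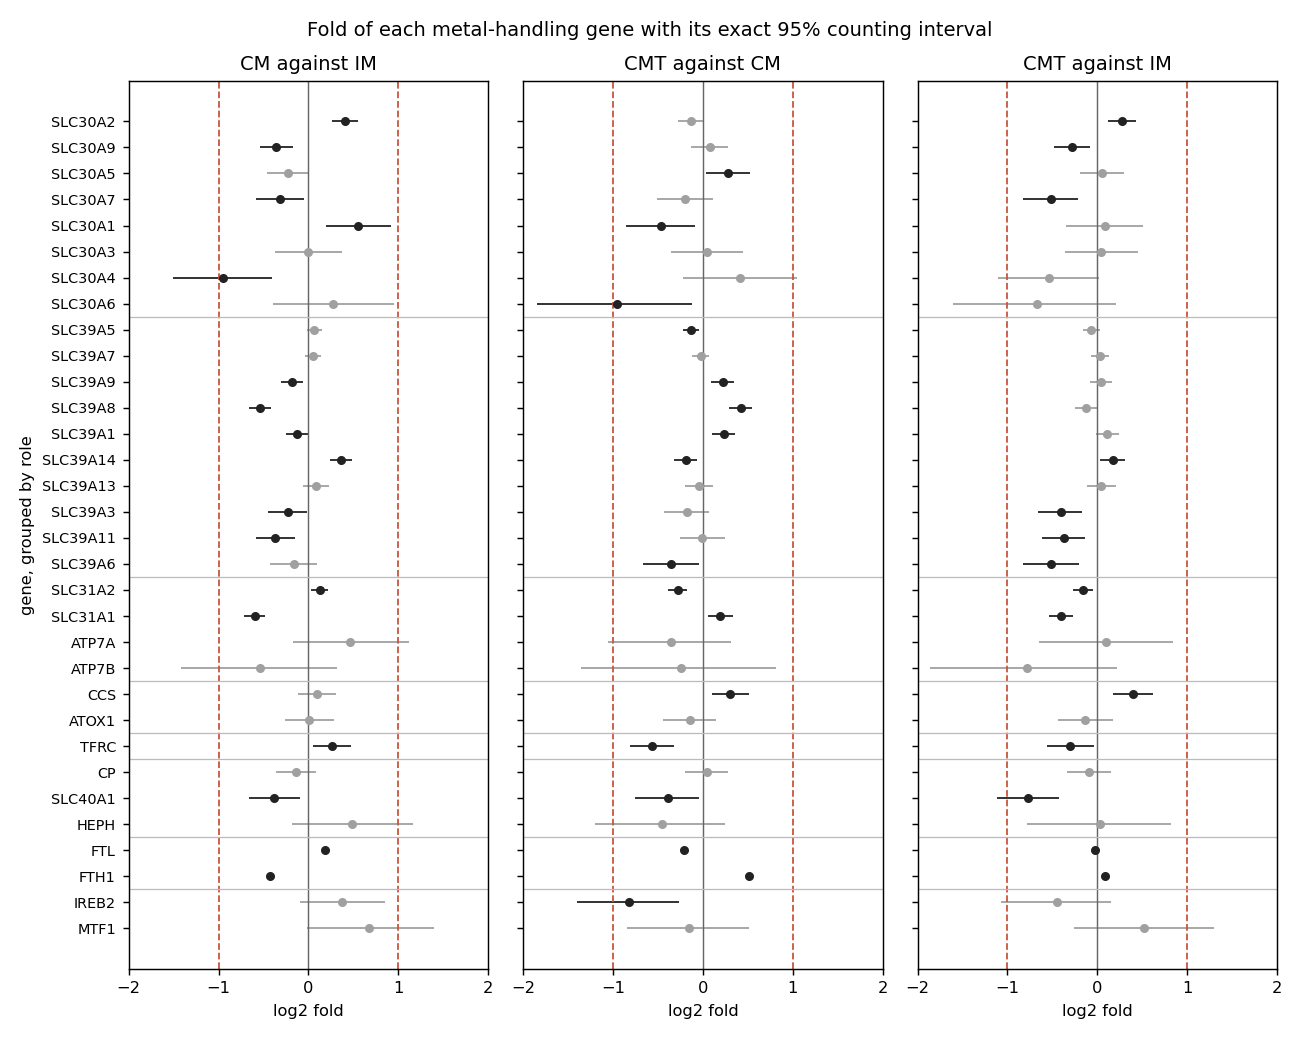
Log2 fold of each compared gene with its exact 95% interval in the 3 comparisons; black marks an interval that does not hold 0, grey one that does, and dashed lines mark 2-fold. No interval lies wholly beyond a dashed line, and the widest ones belong to genes with few counts, such as ATP7B with 28, 22 and 13.

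The zinc exporters as a family stayed close in total while single members differed. The summed level of the 10 SLC30A genes was 125.6, 126.6 and 122.2 CPM. Of the 8 that were compared, CM exceeded IM beyond counting error for 2 and fell short of it for 3. SLC30A1, the plasma membrane exporter ZnT1 and a known target of the zinc sensor MTF1, gave 104, 174 and 88 counts, or 6.28, 9.20 and 6.65 CPM. CM was the high library, at 1.47-fold over IM (1.14 to 1.89), while CMT was 1.38-fold below CM (1.07 to 1.81). IM and CMT did not differ beyond counting error (1.06-fold, 0.788 to 1.42).

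SLC30A2, which loads zinc into secretory vesicles, had 660, 996 and 638 counts. Its level of 39.9 CPM in IM was the low one; CM stood 1.32-fold above it (1.20 to 1.46) and CMT 1.21-fold (1.08 to 1.35). SLC30A4, an exporter of endosomal vesicles, had 78, 46 and 43 counts. It showed the widest drop of the family in CM, 1.94-fold below IM (1.33 to 2.85), on counts too low to settle whether the fold exceeds 2. SLC30A7, of the Golgi, gave 252, 231 and 141 counts, and was 1.25-fold lower in CM (1.04 to 1.5) and 1.43-fold lower in CMT (1.16 to 1.77) than in IM. In the same direction, SLC30A9, with 516, 460 and 339 counts, was 1.28-fold lower in CM (1.13 to 1.46) and 1.22-fold lower in CMT (1.06 to 1.40). For SLC30A7 and SLC30A9, therefore, IM was the high library and the 2 castrate pools lay close together.

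The secretory pathway pair SLC30A5 and SLC30A6, which work together as a heterodimer, had different orders of the libraries. SLC30A5 (309, 301 and 256 counts) was 1.21-fold higher in CMT than in CM (1.02 to 1.44), a difference within counting error when plain library totals set the scale. SLC30A6 (34, 47 and 17 counts) was 1.94-fold lower in CMT than in CM (1.09 to 3.60). SLC30A3, best known from synaptic vesicles, was level at 6.89, 6.88 and 7.10 CPM. The manganese exporter gene SLC30A10, with 13, 8 and 1 counts, and SLC30A8, the zinc transporter of insulin granules, with 0 in each library, were too low to compare. A count of 0 allows up to 3 counts, or 0.181, 0.159 and 0.227 CPM.

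Among the zinc importers, SLC39A8 and SLC39A14 differed in opposite directions between CM and IM. These 2 related proteins (ZIP8 and ZIP14) carry zinc, manganese and iron. SLC39A8 gave 1264, 991 and 928 counts, or 76.3, 52.4 and 70.1 CPM. It was lowest in CM, 1.46-fold below IM (1.34 to 1.58), and CMT was 1.34-fold above CM (1.22 to 1.46). SLC39A14 gave 886, 1301 and 797 counts, or 53.5, 68.8 and 60.2 CPM. It was highest in CM, 1.29-fold above IM (1.18 to 1.40), and CMT was 1.14-fold below CM (1.05 to 1.25) and 1.13-fold above IM (1.02 to 1.24). The last of these differences was within counting error with plain library totals.

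SLC39A5, on the basolateral side of polarised epithelia, had 124, 130 and 118 CPM, and CMT was 1.10-fold below CM (1.03 to 1.17). SLC39A7, which releases zinc from the endoplasmic reticulum, had 116, 120 and 118 CPM, with CM at 1.04-fold of IM (0.975 to 1.10) and CMT 1.02-fold below CM (0.953 to 1.09). SLC39A13, of the Golgi region, was equally flat at 42.1, 44.5 and 43.4 CPM. SLC39A9 (1160, 1167 and 952 counts) was 1.13-fold lower in CM than in IM (1.05 to 1.23) and 1.17-fold higher in CMT than in CM (1.07 to 1.27). SLC39A1, a plasma membrane importer (64.2, 58.9 and 69.2 CPM), had the same order of libraries, with CMT 1.18-fold above CM (1.08 to 1.28).

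A second group of importers was highest in IM. SLC39A11 had 22.3, 17.3 and 17.2 CPM, so that both castrate pools were lower, CM by 1.29-fold (1.11 to 1.5) and CMT by 1.30-fold (1.10 to 1.54). SLC39A3 had 22.3, 19.0 and 16.8 CPM and was 1.33-fold lower in CMT than in IM (1.12 to 1.58). SLC39A6 had 14.6, 13.0 and 10.2 CPM and was 1.43-fold lower in CMT than in IM (1.15 to 1.78). The summed level of all 13 SLC39A genes was 605.6, 586.6 and 595.97 CPM, so the family total moved little. SLC39A4, the intestinal importer whose loss causes acrodermatitis enteropathica, had 4, 11 and 5 counts. SLC39A2 had 0, 6 and 0 and SLC39A12 0, 0 and 1, and these 3 were not compared.

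The metal sensor MTF1, the transcription factor that activates metallothionein genes when zinc rises, was itself low. Its 28, 51 and 32 counts correspond to 1.69, 2.70 and 2.42 CPM. CM stood at 1.60-fold of IM with an interval that held 1 (0.987 to 2.63), and neither comparison with CMT exceeded counting error. With plain library totals, the difference between CM and IM did exceed it. Among metallothioneins, by contrast, MT1A had 82, 4013 and 860 counts, a fold of 42.9 for CM over IM (34.4 to 54.0). MT-2B had 271, 7318 and 1615 counts, and MT-III had 38, 1073 and 243. No zinc transporter among the compared genes came near a change of that size: the SLC30A and SLC39A log2 folds for CM against IM ran from -0.92 to 0.54.

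**Figure D3:**
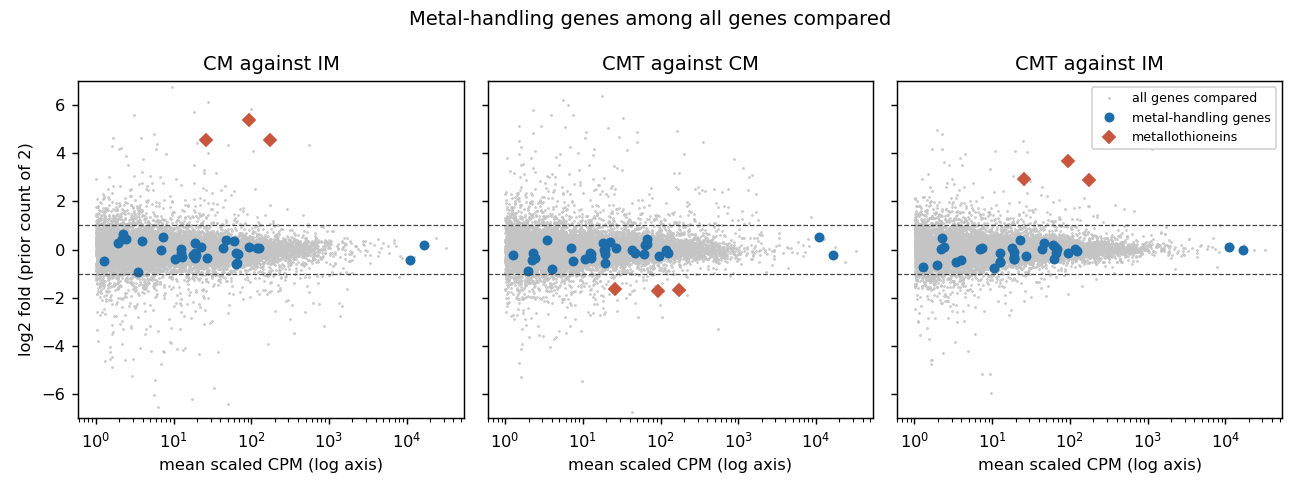
Log2 fold (with a prior count of 2) against the mean scaled CPM (log axis) for all 15472 genes compared (grey), the 32 metal-handling genes (blue) and 3 metallothionein genes (red), with dashed lines at 2-fold. The blue points lie between the dashed lines in each panel while the metallothioneins lie outside them; 3 genes in the left panel and 2 in the middle one fall beyond the vertical axis.

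Of the 6 copper genes, SLC31A1, SLC31A2 and CCS differed between libraries beyond counting error, while ATP7A, ATP7B and ATOX1 did not. SLC31A1, the high-affinity copper importer CTR1, gave 1299, 979 and 784 counts, or 78.5, 51.8 and 59.2 CPM. It was 1.51-fold lower in CM than in IM (1.39 to 1.65) and 1.32-fold lower in CMT than in IM (1.21 to 1.45). CMT lay 1.14-fold above CM (1.04 to 1.26), a difference within counting error under plain library totals. IM was therefore the high library, with both castrate pools below it. SLC31A2, a related protein of endosomes that modulates CTR1, gave 1578, 1966 and 1133 counts, or 95.3, 104 and 85.6 CPM. CM was the high library there, 1.09-fold above IM (1.02 to 1.17), and CMT was 1.21-fold below CM (1.13 to 1.31).

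ATP7A and ATP7B, the copper pumps mutated in Menkes and Wilson disease, were too low for a firm statement. ATP7A had 35, 55 and 30 counts, with CM at 1.38-fold of IM (0.885 to 2.17). ATP7B had 28, 22 and 13 counts, with CMT 1.72-fold below IM (0.863 to 3.62). Neither differed beyond counting error in any comparison. The chaperone ATOX1, which hands copper to those pumps, was level at 12.9, 13.0 and 11.7 CPM. CCS, which loads copper into superoxide dismutase, had 331, 403 and 349 counts, or 20.0, 21.3 and 26.4 CPM. CMT was the high library for CCS, 1.24-fold above CM (1.07 to 1.43) and 1.32-fold above IM (1.13 to 1.54).

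Iron uptake and export genes differed in separate ways. TFRC, the transferrin receptor, had 316, 433 and 205 counts, or 19.1, 22.9 and 15.5 CPM. It was 1.20-fold higher in CM than in IM (1.04 to 1.39), and CMT was 1.48-fold below CM (1.25 to 1.75) and 1.23-fold below IM (1.03 to 1.48). SLC40A1, which codes for ferroportin, the iron exporter of cells, had 222, 195 and 104 counts, or 13.4, 10.3 and 7.86 CPM. IM was the high library and CMT the low one, 1.71-fold below IM (1.35 to 2.18), with CM in between at 1.30-fold below IM (1.07 to 1.58).

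The ferroxidases, which oxidise iron as it leaves a cell, did not differ beyond counting error. CP, coding for ceruloplasmin, had 332, 345 and 249 counts, or 20.1, 18.3 and 18.8 CPM. HEPH, its membrane-bound relative, had 32, 51 and 26. SLC11A1, the iron transporter of phagosomes, had 0, 0 and 1 counts and was not compared. IREB2 codes for the iron regulatory protein that binds ferritin and transferrin receptor messages when iron is scarce. It had 65, 96 and 38 counts, or 3.93, 5.08 and 2.87 CPM, and was 1.77-fold lower in CMT than in CM (1.20 to 2.65). IREB2 did not differ beyond counting error between CM and IM (1.29-fold, 0.934 to 1.80) or between CMT and IM, where CMT was 1.37-fold lower (0.903 to 2.10).

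Ferritin gave the sharpest pattern, because its counts were the deepest. FTH1 codes for the heavy chain, which oxidises iron, and FTL for the light chain, which helps to lay down the iron core. FTH1 had 195979 counts in IM, 166622 in CM and 166415 in CMT, or 1.19%, 0.9005% and 1.22% of all counts. CM was the low library, 1.34-fold below IM (1.33 to 1.35), and CMT was 1.43-fold above CM (1.42 to 1.44). FTL had 266285, 344150 and 208728 counts, or 1.62%, 1.86% and 1.53%. Here CM was the high library, 1.13-fold above IM (1.13 to 1.14), and CMT was 1.15-fold below CM (1.15 to 1.16).

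The heavy and light chain genes thus differed in opposite directions, and their sum stayed near level at 2.81%, 2.76% and 2.76% of all counts. FTL made up 57.6% of ferritin counts in IM (exact 95% interval 57.5 to 57.7), 67.4% in CM (67.2 to 67.5) and 55.6% in CMT (55.5 to 55.8). The ratio of FTL to FTH1 counts was 1.36, 2.07 and 1.25. It does not compare amounts of the chains, since it is not per length, but its change between libraries does not depend on scaling. That change was 1.52-fold from IM to CM (1.51 to 1.53) and 1.65-fold from CMT to CM (1.63 to 1.66; Wald intervals on the log scale). Between CMT and IM the ratio differed by 1.08-fold (1.07 to 1.09).

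Shifts of this size were not rare among abundant genes. Of 91 genes with a mean of at least 1000 CPM, 27 moved at least as far as FTH1 between CM and IM (log2 fold of -0.43) and 62 at least as far as FTL (log2 fold of 0.18), each gene itself included. Ferritin genes have many processed copies in mammalian genomes, and how reads of such copies were assigned is not given in the sources used here.

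**Figure D4:**
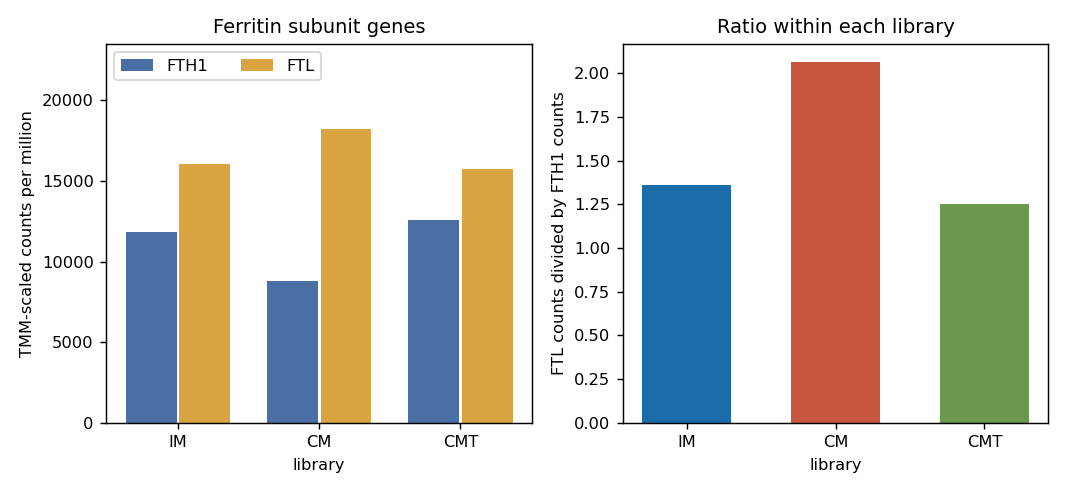
Left, TMM-scaled CPM of FTH1 and FTL in the IM, CM and CMT libraries; right, FTL counts divided by FTH1 counts in each library, with 1 library per bar and no replicate error. CM has the lowest FTH1 and the highest FTL bar, and a ratio of 2.07 beside 1.36 in IM and 1.25 in CMT.

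Other genes of metal metabolism were counted from 3 lists of iron, copper and zinc genes. Of 49 compared iron genes, the 2-fold rule called 1 higher (background 1.2%) and 1 lower (background 1.52%) in the CM library relative to IM. TFR2, a second transferrin receptor that serves iron sensing in liver, was the higher one, with 28, 229 and 108 counts and a fold of 7.16 (4.83 to 11.0). It was still 4.83-fold higher in CMT than in IM (3.16 to 7.60). TF, which codes for transferrin, was the lower one, at 10365, 5382 and 7240 counts and 2.20-fold below IM in CM (2.13 to 2.27). For CMT against CM, ALAS1, the first enzyme of heme synthesis, was higher (2.71-fold, 2.58 to 2.85) and LTF, lactoferrin, was lower (3.07-fold, 2.07 to 4.70). The background there was 1.84% higher and 1.11% lower. STEAP1, of the metalloreductase family, joined TFR2 for CMT against IM (4.33-fold, 2.30 to 8.75) on 13, 39 and 45 counts. Of the 49, these 2 were called higher and 0 lower, beside a background of 0.905% and 0.595%. With so few called in each comparison, the list is not set apart from all genes.

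None of the 17 compared copper genes was called in any comparison. The background was 2.71%, 2.95% and 1.5%, so 0 of 17 is near it. Of the 14 zinc genes, the 3 metallothioneins were called in each comparison and the other 11 in none. The 3 were higher in CM than in IM (background 1.2%) and lower in CMT than in CM (background 1.11%). They were higher in CMT than in IM (background 0.905%). The list was chosen with earlier results known, so these calls are not read as a trait of zinc genes. HAMP, which codes for hepcidin, the hormone that removes ferroportin from the cell surface, had 0, 0 and 2 counts. The median log2 fold for CM against IM was 0.026 for the iron list, -0.064 for the copper list and 0.012 for the zinc list, against -0.0063 for all genes.

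Whole kidney holds several cell types, and in pooled tissue fewer cells of a type and less RNA per cell cannot be told apart. The kidney origin was evident from 9 of 9 proximal tubule markers with enough counts, whose summed level was 16273, 15697 and 15354 CPM; none was called. Markers of the loop of Henle and distal tubule summed to 6162, 7357 and 8424 CPM, with 0 of 5 called. UMOD made up most of that sum, at 5715, 6907 and 7978 CPM. The median log2 fold of the 5 was 0.11 for CM against IM, 0.21 for CMT against CM and 0.0056 for CMT against IM. Collecting duct markers summed to 977.2, 1230 and 932.1 CPM, of which ATP6V1B1 alone gave 432.8, 727.0 and 413.3 CPM. ATP6V1B1 was 1.68-fold higher in CM than in IM (1.63 to 1.73), while the median log2 fold of the 7 markers was -0.028. Of these 7, the 2-fold rule called SLC26A4, an anion exchanger of intercalated cells, lower in CM than in IM (4.06-fold, 3.46 to 4.78) and higher in CMT than in CM (2.87-fold, 2.41 to 3.42). Endothelial markers summed to 441.1, 404.7 and 414.8 CPM, with 0 of 5 called. Macrophage markers summed to 52.1, 69.99 and 73.2 CPM, with 0 of 6 called in any comparison. Neutrophil markers summed to 2.54, 1.75 and 8.39 CPM, and 1 of the 2 compared was called. This was S100A12, with 7, 5 and 87 counts, which gave 6.57 CPM of the CMT sum. It was 24.9-fold higher in CMT than in CM (10.3 to 78.5) and 15.5-fold higher than in IM (7.23 to 39.8). The other compared marker, CSF3R, had 31, 17 and 12 counts. It was 2.07-fold lower in CMT than in IM (1.03 to 4.42) and level between CMT and CM (1.01-fold, 0.439 to 2.24). Genes listed for red cells summed to 121.6, 141.2 and 181.9 CPM with 0 of 3 called, while EPB42 and AHSP were at 0 counts in each library. SLC4A1 gave 64.0, 68.7 and 83.5 CPM of that sum and HBB 55.6, 69.9 and 95.3 CPM. HBB was 1.71-fold higher in CMT than in IM (1.57 to 1.87). Since nearly all of the sum comes from these genes, it is not read here as red cell content. Liver markers, which include TF, summed to 818.3, 401.5 and 708.2 CPM. In CM against IM, 2 of 9 were called higher, APOA1 and TTR (background 1.2%), and 4 of 9 lower, ALB, AFP, PLG and TF (background 1.52%). TF is one of those 4 and made up most of the sum, which was 192.2, 116.8 and 161.2 CPM without it. ALB alone gave 117.9, 1.27 and 30.5 CPM, while the median log2 fold of the 9 markers was 0.49 for CM against IM. For CMT against CM, ALB, AFP and TTR were called higher and 0 lower (background 1.84% and 1.11%). For CMT against IM, TTR was called higher, and ALB and PLG lower (background 0.905% and 0.595%). The backgrounds given here hold for the other marker lists too. The part of these cell types in the differences above was not tested.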

How the data were processed

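The deposited file gives the number of reads counted for each gene (raw counts) in 3 kidney libraries. Per the labels' protocols, each library was made from RNA of 3 pigs pooled in equal amounts. FastQC is the only tool named in the submitters' processing notes; the genome build, annotation, aligner, counter and strand setting are not given in the sources used here. No gene positions are given for that reason. Of 34570 rows, 19902 carry a numbered identifier, and 1556 of these received a symbol from the RefSeq table of assembly Sscrofa11.1. The members matched by their deposited symbols. A further column holding a few ratios was not used.

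Effective library sizes came from TMM factors of edgeR 4.0.16 (R 4.3.3); no model was fitted across genes, because a single library per group gives no spread to fit. The 15472 genes whose scaled CPM averaged at least 1 across libraries were compared. Log2 folds used a prior count of 2; printed folds are ratios of scaled counts without it. Intervals were computed with scipy 1.17.1, and the rule was tested on simulated counts with random counting error only (Poisson). The interval assumes that same error and the simulated counts held no spread between pigs, so the test checks the computation alone. Sequenced reads are not independent molecules, so intervals and floors cover counting error only.

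The members, roles, lists and rule were chosen with earlier results of these data known. Values in every library are given for members called in a comparison, for a fixed set of members, and for those with the largest and smallest fold of their role. From the lists of other genes, called ones are named.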

Additional observations from a re-analysis of the deposited data

How the results depend on the processing

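The count of called genes among the 32 was 0 in every comparison under each of 10 other settings: 4 other scalings, 2 filters, a 99% interval, fold limits of 1.5 and 3, and thinning to the smallest library. The filter at 5 CPM, the 99% interval and the 3-fold limit are stricter and could not raise a count of 0, so they are no separate check of it. With no filter 35 to 37 genes entered and 0 were called. Under the added rule of an interval that does not hold 1, the count was 17 for CM against IM, 17 for CMT against CM and 14 for CMT against IM. Plain library totals, with or without ribosomal RNA and mitochondrially encoded genes, moved the median of all genes by less than 0.1 on the log2 scale but ended such a difference for SLC39A1 and SLC39A3 (CM against IM), SLC30A5 and SLC31A1 (CMT against CM) and SLC39A14 (CMT against IM). The same totals brought MTF1 and SLC39A5 (CM against IM), SLC30A2, SLC39A3 and SLC39A7 (CMT against CM), and SLC30A4, SLC39A5 and SLC39A8 (CMT against IM) beyond counting error. A 99% interval ended 5, 5 and 2 of these differences in the 3 comparisons, and thinning 0, 2 and 1. Over the settings that kept the 32 genes, their median ranged from -0.019 to 0.028 for CM against IM, from -0.21 to -0.13 for CMT against CM and from -0.13 to -0.068 for CMT against IM. A filter at 5 CPM left 25 genes, with medians of -0.12, -0.038 and -0.067. With no filter the medians were 0.011, -0.14 and -0.048. No paired analysis was possible because each group is 1 library. Depth limits 9 of the 32 genes, which had fewer than 100 counts in a library.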

Other observations

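The list of other iron genes was also read by the rule of an interval that does not hold 1, which was added after the data were seen. More counts give a narrower interval, and the background genes were not matched to this list for counts. A share above the background therefore cannot be read as a trait of iron genes. Of its 49 compared genes, 20 were higher in CM than in IM (40.8%, background 21.2%) and 13 were lower (26.5%, background 23.2%). Scaling by plain library totals gave the same counts. For CMT against CM, 12 were higher (24.5%, background 21.3%) and 18 lower (36.7%, background 20.4%), or 7 and 20 with plain totals. For CMT against IM, 13 were higher (26.5%, background 17.8%) and 17 lower (34.7%, background 17.5%), or 10 and 17. The 3 genes that missed the 2-fold rule but had the interval farthest above 1 for CM against IM were ALAD, HPX and STEAP1. ALAD, an enzyme of heme synthesis, had 398, 975 and 452 counts in the order IM, CM, CMT and was 2.15-fold higher in CM than in IM (1.91 to 2.42). HPX, the plasma carrier of heme, had 151, 361 and 125 counts and was 2.09-fold higher (1.73 to 2.55). STEAP1 was 2.63-fold higher (1.37 to 5.36). The 3 farthest below 1 were ALAS1, FBXL5 and CYBRD1. ALAS1 had 3831, 2269 and 4309 counts and was 1.93-fold lower in CM than in IM (1.83 to 2.03). FBXL5, the iron-sensing ubiquitin ligase subunit that marks the IREB2 protein for degradation, had 3606, 2712 and 2993 counts and was 1.52-fold lower (1.44 to 1.60). CYBRD1, a ferric reductase, had 1516, 1141 and 1176 counts and was 1.52-fold lower (1.40 to 1.64). ALAD and ALAS1, both of heme synthesis, thus differed in opposite directions between these 2 pools.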
